A study of Mus musculus with 6 samples.

Results

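Polycomb proteins, histone-modifying enzymes and chromatin remodellers were examined as a named set of 48 genes, grouped by the complex or reaction to which each belongs. All 48 symbols were found in the authors' deposited table of 36699 rows, and 45 of the 48 were among the 18114 rows that the authors tested. The remaining 3 (Phc1, Kdm5a and Ehmt1) have a group value but a failed test. The cells were A2Lox.cre mouse embryonic stem cells with a doxycycline-inducible Flag-Lef1 transgene, stripped from their feeder layer of primary mouse embryonic fibroblasts and grown in suspension as embryoid bodies until day 3. In the plus_Dox group, 3 libraries (numbered 1, 2 and 3) came from cells given doxycycline (Dox) for the last 24 h, and in the minus_Dox group 3 libraries (numbered 1, 3 and 4) came from cells of the same line without it. The labels name no doxycycline-treated line without the transgene, so the drug and the transgene cannot be told apart. Nor do they tell separate cultures from repeat libraries of 1 culture, so p-values and q-values speak only for these libraries, whose spread may be technical. What else the authors' estimate of error takes in cannot be seen here.

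Each gene has 1 level per group, in FPKM (fragments scaled by transcript length and library size), so no value of a single library can be shown and sequencing depth is unknown. Calls are those of the authors' own test at a q-value of at most 0.05. The standard error (SE) of a log2 fold (plus_Dox over minus_Dox) is that log2 fold divided by the authors' test statistic, without sign. Lef1, the DNA-binding partner of beta-catenin that the transgene encodes, stood at 7.56 FPKM without and 51.0 FPKM with doxycycline by the authors' deposited table, at a log2 fold of 2.75 (SE 0.19, q listed as 0). Of 10 stem cell and epiblast markers, 9 ranged from 7.69 FPKM (Zfp42) to 1510 FPKM (Pou5f1) by the authors' deposited table, with 2 called higher and 2 lower. The tenth, Dnmt3b, is listed at 0 in minus_Dox, with its row marked as too high in depth. Fibroblast markers were low in the authors' deposited table: 10 genes ranged from 0.013 to 16.6 FPKM, with summed levels of 19.3 FPKM in minus_Dox and 24.0 FPKM in plus_Dox. None of the 9 tested was called, beside 12.2% of all tested rows. In the authors' test 4 had an unadjusted p under 0.05, beside 23.3% of all tested rows. Of these, Thy1, Col1a1 and Twist2 were higher in plus_Dox and Pdgfra was lower. Extraembryonic endoderm markers, from 1.60 to 78.8 FPKM by the authors' deposited table, had 2 rises among 7 tested. Primitive streak markers differed between the groups as well: all 7 tested were called higher by the authors' deposited table, from 14.4 to 84.9 FPKM in sum. Their part in the levels of chromatin genes was not tested, and in bulk RNA a change in cell types and a change within cells cannot be told apart.

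Polycomb repressive complex 2 (PRC2) methylates lysine 27 of histone H3, and complex 1 (PRC1) ubiquitinates histone H2A through a RING ligase. Together they hold developmental genes silent in embryonic stem cells while keeping them ready for activation. Trithorax-type methyltransferases and acetyltransferases act on the opposite side, H3K9 methyltransferases with their cofactor Trim28 silence repeats and genes, and the BAF, NuRD and CHD remodellers move or replace nucleosomes. Lef1 recruits either beta-catenin, which brings activating cofactors, or corepressors, so several of these proteins work with it at target genes.

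The set as a whole moved little. Of the 45 tested genes, 3 rose (Ring1, Phc2 and Mbd3), 3 fell (Rnf2, Rybp and Kdm6a) and 39 did not pass in the authors' deposited table. The 6 calls made up 13.3% of the tested members, beside 12.2% of all tested rows. Rises made up 6.67% of the members beside 8.98% of all rows, and falls 6.67% beside 3.22%. An unadjusted p under 0.05 in the authors' test was reached by 9 of the 45 members, beside 23.3% of all tested rows. At these shares, a complex of a few genes without a call is not set apart from other rows. The 3 rises did not pass once the median log2 fold of all genes was subtracted, and none of the 6 passed once a trend on transcript GC content and length was removed. Most members were well expressed, with a median of 25.9 FPKM in minus_Dox against 3.45 FPKM over all tested rows, and 44 of the 48 reached 5 FPKM in the higher group. Among tested rows with at least 5 FPKM, 22.3% were called, and among the 41 tested members at that level 14.6% (q-values adjusted again over these rows). At a stricter q-value of 0.01, 2 members remained (Rnf2 and Kdm6a), beside 6.67% of all tested rows. None of the 45 reached a 2-fold change, a size that 491 of all tested rows (2.71%) combined with a call. The median log2 fold was 0.04 for the members and 0.20 for all tested rows.

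Levels ran from 0.574 to 509.9 FPKM, as the plot of group FPKM by complex shows. Trim28, the corepressor that brings Setdb1 to zinc finger proteins, was the most abundant at 376 and 509.9 FPKM by the authors' deposited table. The deacetylase gene Hdac1 (176 and 171 FPKM) came next in both groups of the authors' deposited table. Hdac2 (129 and 121 FPKM) followed in minus_Dox, and Mbd3 (90.4 and 136 FPKM) in plus_Dox, by the authors' deposited table. At the low end, the authors' deposited table lists Phf19, a PRC2 accessory gene, at 0.574 and 0.589 FPKM, Cbx8 at 0.807 and 1.498 FPKM, and Phc3 at 1.30 and 1.05 FPKM.

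**Figure D1:**
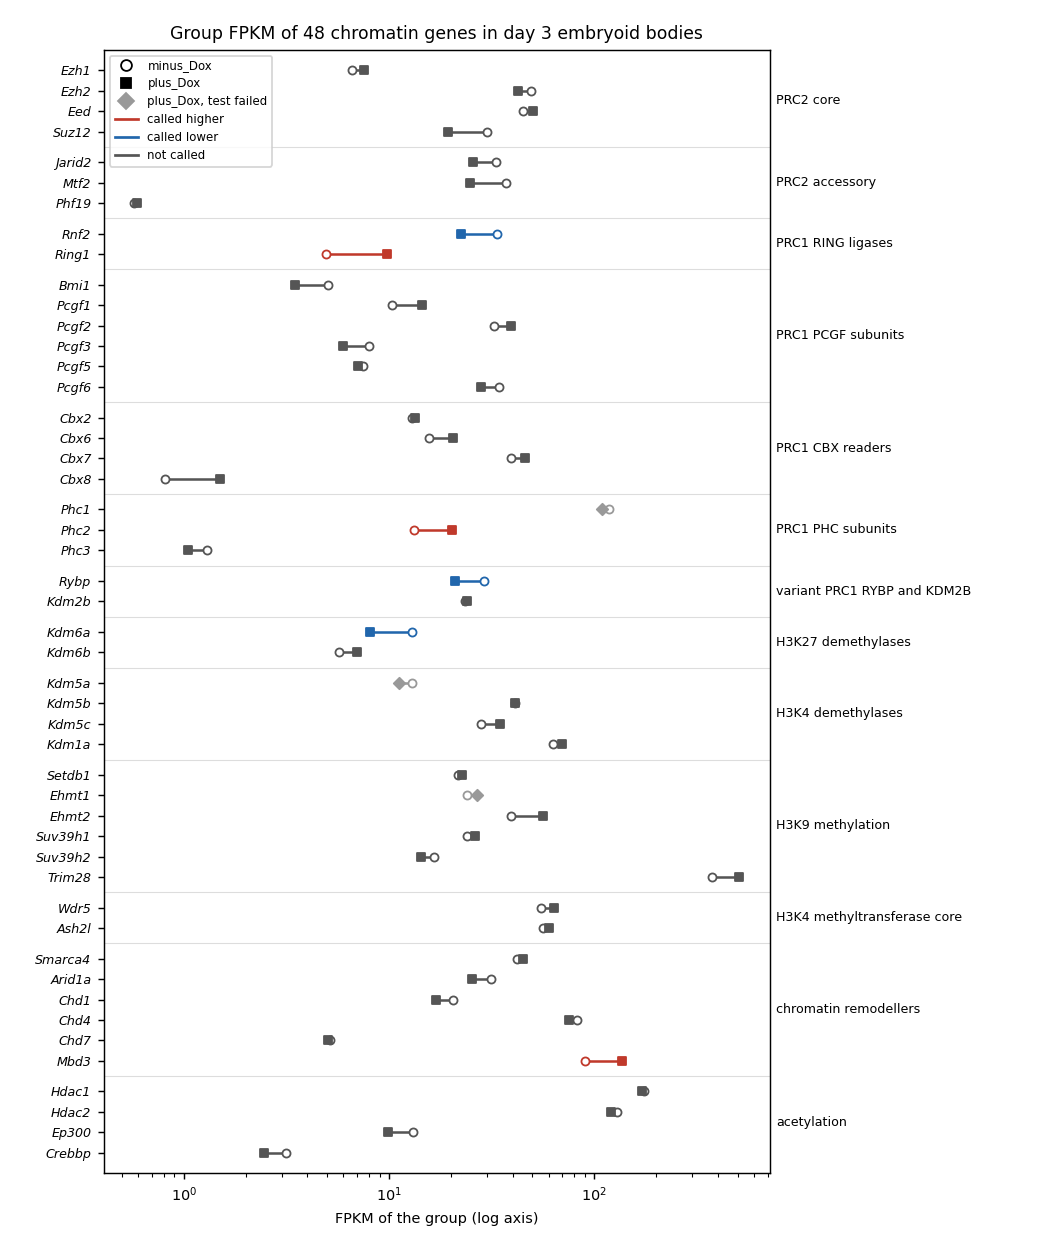
FPKM of each gene in minus_Dox (open circle) and plus_Dox (filled square, or grey diamond where the authors' test failed) on a log axis, 1 value per group of 3 libraries, arranged by complex. Coloured lines join the values of the 3 genes called higher (red) and the 3 called lower (blue), and for most of the 48 genes both marks lie close together.

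The clearest contrast lay between the RING ligases, the catalytic core of PRC1. Ring1 rose from 4.94 to 9.82 FPKM by the authors' deposited table, or 1.99-fold (95% interval 1.28 to 3.08; log2 fold 0.99, SE 0.32; q = 0.023). Rnf2, which encodes RING1B, fell from 33.4 to 22.4 FPKM in the same deposited table of the authors, to 0.671 of its level (95% interval 0.537 to 0.838; log2 fold -0.58, SE 0.16, q = 0.0072). The paralogues thus passed in opposite directions as deposited, with intervals that do not overlap. Whether they differed from each other was not tested. Ring1 did not pass once the median log2 fold of all genes was subtracted. After subtraction of the trend with transcript GC content and length neither passed. Their log2 fold intervals were then -0.24 to 1.03 and -0.52 to 0.12, which overlap. Rnf2 was the more abundant in both groups, but Ring1 made up 12.9% of their summed FPKM without doxycycline and 30.5% with it. Their sum went from 38.4 to 32.2 FPKM. In mm9, the build in the submitters' processing notes, the Ring1 row covers chromosome 17 from 34157736 to 34161625 and the Rnf2 row chromosome 1 from 153316535 to 153347953.

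Because these paralogues were called in opposite directions as deposited, the 250 bases before the start of each are shown. Those of Kdm6a, the largest deposited fall of the set, are shown with them. They come from RefSeq promoter windows on GRCm38.p6, which matched 39 of the 48 genes, and lie on chr17:34024681-34024930 (minus strand), chr1:151500992-151501241 (minus strand) and chrX:18162325-18162574 (plus strand). Capitals mark CG dinucleotides.
Ring1: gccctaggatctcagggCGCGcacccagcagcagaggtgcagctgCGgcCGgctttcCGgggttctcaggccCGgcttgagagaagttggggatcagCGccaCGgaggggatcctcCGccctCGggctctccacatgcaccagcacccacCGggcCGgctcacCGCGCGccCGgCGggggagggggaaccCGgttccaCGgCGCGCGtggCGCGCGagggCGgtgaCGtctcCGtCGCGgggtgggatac
Rnf2: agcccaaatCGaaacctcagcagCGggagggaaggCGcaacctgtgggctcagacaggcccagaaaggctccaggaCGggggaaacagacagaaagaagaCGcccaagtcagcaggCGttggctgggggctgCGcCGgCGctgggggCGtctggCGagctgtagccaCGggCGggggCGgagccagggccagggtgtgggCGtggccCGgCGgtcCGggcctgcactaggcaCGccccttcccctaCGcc
Kdm6a: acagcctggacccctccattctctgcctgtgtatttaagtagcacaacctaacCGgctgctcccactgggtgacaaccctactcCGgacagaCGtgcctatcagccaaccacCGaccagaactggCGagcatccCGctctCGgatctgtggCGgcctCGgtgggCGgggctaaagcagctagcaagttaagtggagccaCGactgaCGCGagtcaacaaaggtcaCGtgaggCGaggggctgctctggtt
All are rich in CG: the Ring1 stretch holds 30 such dinucleotides, that of Rnf2 20 and that of Kdm6a 15, and GC content was 73.6%, 70.4% and 59.6%. In the whole set, the 52 windows (250 bases before to 50 after the start) had a median of 26 CG dinucleotides against 7 over all 32851 windows in the table.

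The sequence CTTTGA, a form of the Lef1 core motif, was searched on both strands (its reverse complement is TCAAAG). It occurred in 6 of the 52 windows, or 11.5%, and in 16.0% of all windows. Median GC content was 64.3% in the 52 windows and 52.7% over all windows, and the shares were not adjusted for it. CTTTGA was in none of the windows of the 5 called members that the table holds (Ring1, Rnf2, Phc2, Mbd3 and Kdm6a). Other forms of the motif were not searched, and the Kdm6a stretch printed above holds ACAAAG, the reverse complement of CTTTGT. The 6 members with a match were Suz12, Phc1, Pcgf5, Kdm5c, Smarca4 and Suv39h2. The authors' test of Phc1 failed, and none of the other 5 was called, though Suz12 was called lower (q = 0.032) when the groups were rescaled to a median ratio of 1 over expressed genes. One match is shown with its surroundings, that of the PRC2 gene Suz12 at chr11:79992892-79992921 of GRCm38.p6 on the plus strand, with the motif in capitals.
Suz12: cgcgaattcagtTCAAAGaggcgtccgggc
A match of 6 letters is a description of these windows only.

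Among the other PRC1 genes, Phc2 and Rybp were called. Phc2, a Polyhomeotic subunit through which PRC1 particles cluster, rose from 13.2 to 20.2 FPKM by the authors' deposited table (1.53-fold, log2 fold 0.61, SE 0.19, q = 0.018). Its paralogue Phc1, which made up 89.0% of the summed Phc FPKM without doxycycline, is listed there with 118 and 109.8 FPKM but a failed test, and Phc3 did not pass (log2 fold -0.30, SE 0.48). Rybp, which marks the variant PRC1 complexes without a CBX protein, fell from 29.1 to 20.9 FPKM by the authors' deposited table, at a log2 fold of -0.48 (SE 0.16, q = 0.031). Kdm2b, whose zinc finger takes variant PRC1 to unmethylated CpG islands, stood at 23.4 and 24.1 FPKM in that authors' deposited table, at a log2 fold of 0.04 (SE 0.39).

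PCGF subunits define which PRC1 variant a RING ligase joins. None of the 6 was called, beside 12.2% of all tested rows. In the authors' test 1 had an unadjusted p under 0.05, beside 23.3% of all tested rows. Pcgf6 and Pcgf2 were the most abundant, at 34.2 and 32.6 FPKM in minus_Dox and 28.0 and 39.5 FPKM in plus_Dox by the authors' deposited table. The log2 folds of the family ran from -0.54 for Bmi1 (SE 0.43) to 0.48 for Pcgf1 (SE 0.23, unadjusted p = 0.036, q = 0.17 in the authors' test). Their sum was 97.8 FPKM without and 98.5 FPKM with doxycycline. Of the CBX readers, which bind methylated H3K27, Cbx7 was the most abundant in both groups (39.4 and 46.1 FPKM by the authors' deposited table) and made up 57.1% and 56.6% of the summed CBX levels. None of the 4 was called in the authors' test, and none had an unadjusted p under 0.05 (12.2% and 23.3% of all tested rows). The widest of them, Cbx8 (log2 fold 0.89), had a 95% interval from -0.04 to 1.83. The Cbx6 row (15.7 and 20.5 FPKM by the authors' deposited table) also joins Npcd and Nptxr, so it is not a value of Cbx6 alone. Cbx2 and Cbx8 lie 5.03 kb apart on chromosome 11, and Cbx6 and Cbx7 57.0 kb apart on chromosome 15.

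**Figure D2:**
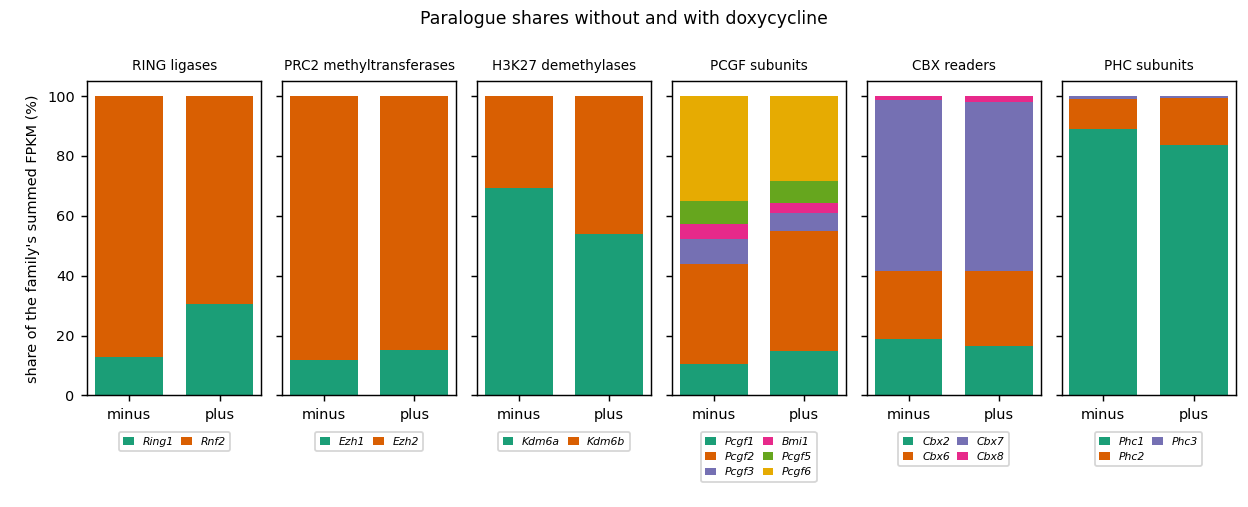
Share of each paralogue in the summed FPKM of its family, in percent, without (minus) and with (plus) doxycycline, for 6 families, from 1 value per group and without error. The Ring1 share goes from 12.9% to 30.5% and the Kdm6a share from 69.3% to 53.8%, whereas the Ezh2 share is 88.2% and 85.0%.

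None of the 7 PRC2 genes was called in the authors' test, beside 12.2% of all tested rows, so this small group is not set apart. The core methyltransferase gene Ezh2 stood at 49.2 and 42.7 FPKM by the authors' deposited table, at a log2 fold of -0.21 (95% interval -0.63 to 0.22). Eed, the subunit that reads the mark, stood at 44.9 and 50.5 FPKM (log2 fold 0.17, 95% interval -0.26 to 0.60), and the less active Ezh1 at 6.59 and 7.55 FPKM by the authors' deposited table. Suz12, the scaffold subunit, was listed at 30.1 and 19.4 FPKM by the authors' deposited table, at a log2 fold of -0.64 (SE 0.28, unadjusted p = 0.022, q = 0.12), the 1 core gene with an unadjusted p under 0.05. The accessory genes Jarid2 (33.1 and 25.6 FPKM) and Mtf2 (37.0 and 24.8 FPKM) help recruit the complex. Their log2 folds of -0.37 and -0.58 by the authors' deposited table carried SEs of 0.54 and 0.36, so changes in either direction remain inside their intervals (-1.43 to 0.69 and -1.29 to 0.14).

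Of the enzymes that remove the PRC2 mark, Kdm6a (UTX) fell. It went from 12.9 to 8.09 FPKM by the authors' deposited table, to 0.626 of its level (95% interval 0.479 to 0.817; log2 fold -0.68, SE 0.20, q = 0.0087). Its row covers the X chromosome from 17739700 to 17857062 in mm9. Kdm6b (JMJD3) stood at 5.72 and 6.95 FPKM by the authors' deposited table and did not pass (log2 fold 0.28, SE 0.24). The Kdm6a share of the pair went from 69.3% to 53.8%. Whether these paralogues differed from each other was not tested, and their intervals (-1.06 to -0.29 and -0.19 to 0.76) do not overlap. After subtraction of the trend with transcript GC content and length, the intervals (-0.73 to 0.04 and -0.51 to 0.44) overlap and both include 0.

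H3K4 demethylase genes showed small differences. Kdm5b, the most abundant of the KDM5 family, was listed at 40.99 and 41.0 FPKM by the authors' deposited table, at a log2 fold of 0.00077 (95% interval -0.52 to 0.52). Kdm5c, on the X chromosome, stood at 27.9 and 34.9 FPKM (log2 fold 0.32, SE 0.30) and Kdm1a, the LSD1 gene, at 63.0 and 69.7 FPKM (log2 fold 0.15, SE 0.23) by the authors' deposited table. Kdm5a, with a failed test, is listed at 12.9 and 11.2 FPKM there. None of the 3 tested was called in the authors' test, nor did any have an unadjusted p under 0.05 (12.2% and 23.3% of all tested rows). On the opposing side, Wdr5 (55.3 and 63.7 FPKM) and Ash2l (56.4 and 60.0 FPKM), shared core subunits of the H3K4 methyltransferase complexes, had log2 folds of 0.21 (SE 0.18) and 0.09 (SE 0.22) by the authors' deposited table and did not pass.

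Genes of H3K9 methylation did not pass either: 0 of 5 tested were called in the authors' test, beside 12.2% of all tested rows. An unadjusted p under 0.05 in that test was reached by 0, beside 23.3% of all tested rows. Log2 folds ran from -0.21 for Suv39h2 (SE 0.18) to 0.51 for Ehmt2 (SE 0.27, q = 0.23), the G9a gene, by the authors' deposited table. Ehmt2 was listed at 39.3 and 56.1 FPKM and its partner Ehmt1, whose test failed, at 23.9 and 26.97 FPKM by the authors' deposited table. Setdb1, the methyltransferase recruited by Trim28, did not pass (21.6 and 22.6 FPKM by the authors' deposited table, log2 fold 0.07, 95% interval -0.33 to 0.46). Trim28 had a log2 fold of 0.44 (SE 0.30, q = 0.42) in the same table. Ehmt2 lies 874 kb from Ring1 on chromosome 17.

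Of the remodellers, Mbd3 rose. This NuRD subunit links the deacetylase and remodelling parts of the complex and limits pluripotency genes in embryonic stem cells. It went from 90.4 to 136 FPKM by the authors' deposited table, or 1.51-fold (95% interval 1.16 to 1.97; log2 fold 0.59, SE 0.20; q = 0.026). Its log2 fold was -0.05 after the trend on transcript composition was removed. The other NuRD members of the set did not pass the authors' test. Chd4, its ATPase, had a log2 fold of -0.13 (SE 0.33), and Hdac1 and Hdac2 had log2 folds of -0.04 (SE 0.19) and -0.08 (SE 0.19) by the authors' deposited table. In BAF, the ATPase gene Smarca4 stood at 42.2 and 45.1 FPKM (log2 fold 0.10, 95% interval -0.25 to 0.44), whereas the large subunit gene Arid1a had the widest error of the set in the authors' deposited table (31.4 and 25.5 FPKM, log2 fold -0.30, SE 0.56). Chd1 (20.6 and 17.0 FPKM) and Chd7 (5.16 and 5.07 FPKM) had log2 folds of -0.27 (SE 0.29) and -0.03 (SE 0.24) by the authors' deposited table. The acetyltransferase genes Ep300 and Crebbp, coactivators that bind beta-catenin, stood at 13.0 and 9.92 FPKM and at 3.14 and 2.47 FPKM by the authors' deposited table. Neither passed the authors' test: Ep300 had a log2 fold of -0.40 (SE 0.18, q = 0.15) and Crebbp of -0.34 (SE 0.19, q = 0.27), and the unadjusted p of Ep300 was 0.031 in the authors' test.

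Precision differed between members. SEs of the log2 fold ran from 0.16 to 0.56 with a median of 0.23. For 28 of the 39 uncalled genes the 95% interval stayed within a 2-fold change in either direction. The 11 whose interval reached past 2-fold were Suz12, Jarid2, Mtf2, Bmi1, Pcgf3, Cbx6, Cbx8, Phc3, Ehmt2, Trim28 and Arid1a. A missed threshold does not show that a gene was level, either in these 11 or in the 28. The 6 called genes lay under 2-fold as well. Among the 28, the deposited intervals of Ep300 (-0.75 to -0.04) and Pcgf1 (0.03 to 0.93) did not include 0.

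Direction within the set followed the base composition of the transcripts. The 3 risers had transcript GC contents of 60.4% (Phc2), 60.7% (Ring1) and 62.9% (Mbd3), and the 3 fallers 39.5% (Rnf2), 42.5% (Kdm6a) and 43.6% (Rybp). Across the 45 tested genes, Spearman's coefficient between log2 fold and GC content was 0.77, and between log2 fold and transcript length -0.41. Over 11869 tested rows with at least 1 FPKM the coefficients were 0.65 and -0.46. These describe genes that share the same libraries and are not independent replicates. Of the 23 tested members at or above the set's median GC content, 18 had a log2 fold above 0, and of the 22 below it 6 did. The median log2 folds were 0.21 and -0.24.

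**Figure D3:**
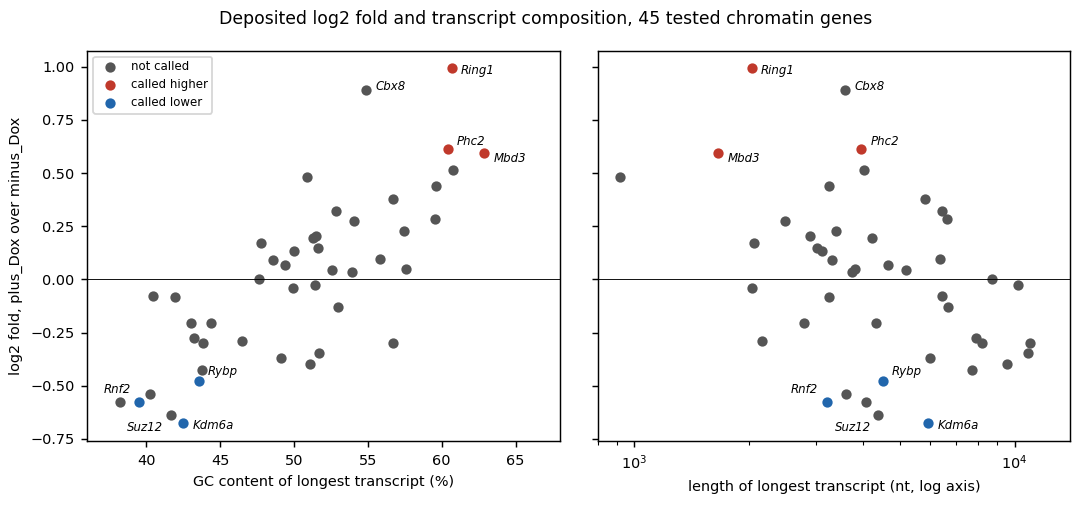
Deposited log2 fold of the 45 tested genes against GC content (left, percent) and length (right, nt, log axis) of the longest transcript of each gene in GENCODE vM21. The 3 genes called higher (red) have GC contents of 60.4% and more and the 3 called lower (blue) of 43.6% and less.

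When a smooth trend on both properties, fitted over all tested rows with at least 1 FPKM, was subtracted, none of the 45 members passed. The lowest q was 0.38 (normal test with the authors' SE, Benjamini-Hochberg over 17001 rows), beside 2.2% of all rows that passed. An unadjusted p under 0.05 was then reached by 3 members (Pcgf6, Cbx2 and Ep300), all lower, and by 8.83% of all rows. Ring1 then stood at a log2 fold of 0.40 and Rnf2 at -0.20, with 95% intervals of -0.24 to 1.03 and -0.52 to 0.12 that overlap and include 0. Kdm6a stood at -0.35, Rybp at -0.27, Phc2 at 0.17 and Mbd3 at -0.05. Subtracting only the median log2 fold of all rows with at least 1 FPKM, 0.20, left 0 members higher and 6 lower, with 3.47% and 6.1% of all rows. The 6 were Rnf2, Rybp and Kdm6a together with Suz12 (log2 fold -0.84, q = 0.032), Ep300 (-0.60, q = 0.017) and Crebbp (-0.54, q = 0.048). Under this scaling an unadjusted p under 0.05 was reached by 12 members, beside 20.04% of all tested rows. Of these members, 3 had a log2 fold above 0 (Ring1, Phc2 and Mbd3) and 9 below 0. The 9 were the 6 called lower together with Mtf2, Pcgf6 and Suv39h2. A trend on GC content alone left 2 members lower (Ep300 and Crebbp, beside 1.42% of all rows), and a trend on length alone left 4 (Rnf2, Pcgf6, Rybp and Kdm6a, beside 3.54%). Which members count as changed therefore depended on the scaling and on whether a trend on transcript composition was removed. The lower level of Rnf2, Rybp and Kdm6a was called under the deposited and the median scaling and with the length trend removed. It was not called once a trend on GC content, alone or with length, was removed.

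Other chromatin genes, a list of 166 that extends the same complexes, were looked at next. Of these 1 was not found and 3 have 2 rows each. Of 161 tested rows, 7 rose and 9 fell by the authors' test (9.94%, beside 12.2% of all tested rows), with a median log2 fold of 0.07. The largest rises were in Bcl7c, a BAF subunit gene (44.7 to 94.3 FPKM, log2 fold 1.08, SE 0.19), and Sin3b, the scaffold of a deacetylase complex (84.7 to 169 FPKM, log2 fold 1.00, SE 0.18), by the authors' deposited table. Sirt1, a NAD-dependent deacetylase gene, showed the largest fall, with 18.6 and 8.45 FPKM by the authors' deposited table and a log2 fold of -1.14 (SE 0.21). After trend removal 3 of these rows were called, beside 2.2% of all rows with a trend value, and all 3 were among the 16: Sin3b at 0.65, Sirt1 at -0.95 and Sall1, a NuRD-binding zinc finger gene, at -0.58.

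By complex, the rest of Polycomb had 1 rise in 19 tested genes, the PRC2 accessory gene Phf1 (2.66 and 4.28 FPKM in minus_Dox and plus_Dox by the authors' deposited table; log2 fold 0.69, SE 0.21). Cxxc1, the CpG-binding subunit of the SET1 complexes, was the 1 rise among 14 tested H3K4 methyltransferase genes (21.1 to 31.7 FPKM by the authors' deposited table). The ATPase genes Ruvbl1 (82.3 to 120 FPKM) and Ruvbl2 (113 to 178 FPKM), which form a ring together, both rose by the authors' deposited table. Falls in the same remodeller list of 21 tested rows were Chd9 (log2 fold -0.72), Smarcad1 (-0.67) and Smarca1 (-0.63) by the authors' deposited table. Beyond Sin3b and Sirt1, 23 tested rows of deacetylases and corepressors held falls of Hdac9 (1.52 to 0.691 FPKM) and Tbl1xr1 (6.09 to 4.23 FPKM) by the authors' deposited table. Ruvbl1, Smarca1 and Tbl1xr1 were named after their values were seen. Histone lysine methyltransferase genes had a rise of Smyd2 and a fall in 1 of the 2 rows named Atf7ip among 17 tested rows, and demethylases a fall of Kdm7a (2.09 to 1.08 FPKM by the authors' deposited table, under its older symbol Jhdm1d) among 11. None of 15 acetyltransferase genes and none of 9 HP1 and H3K9 reader genes was called in the authors' test, beside 12.2% of all tested rows. In that test 2 and 1 had an unadjusted p under 0.05, beside 23.3% of all tested rows.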

How the data were processed

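The authors' deposited table has the layout of Cuffdiff's gene-level output. Tools in the submitters' processing notes are Cuffdiff, Cufflinks 2.0.2, TopHat2 2.0.8, Bowtie and Picard, with the build mm9. Their roles and the gene annotation are not given in the sources. Per the file headers it holds an FPKM value per group, a log2 fold, a test statistic (a score whose sign is opposite to the fold in all 17830 rows with a finite fold), a p-value and a q-value. The p-value was checked to be the two-sided normal tail of that score and the q-value its Benjamini-Hochberg adjustment over 18114 tested rows. Single libraries have 0 columns, so the authors' own deposited test was used, as the design foresaw, at q of at most 0.05. Other statuses were not tested (18116 rows), failed (368) and too high in depth (98).

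Members were matched by splitting the gene column at commas. The 95% intervals are the log2 fold ± 1.96 SE. They rest on the authors' estimate of the spread, which cannot be seen here, and how reads of overlapping or near-identical genes were divided is not given. Rows of Mtf2, Cbx6, Kdm1a, Suv39h1 and Suv39h2 span over 1.5 times the annotated gene and may take in other transcripts. Those of Trim28, Pcgf5 and Rnf2 span only 0.22, 0.68 and 0.73 of it, so their longest annotated transcript may differ from what was measured. Each symbol's longest basic transcript in GENCODE vM21 gave GC content and length, known for 94.4% of tested rows and all 48 members. The trend was a least squares fit on cubic splines with 6 knots each (scikit-learn 1.9.0). It was tested on simulated folds with a linear trend and changes larger than that of any member. That test therefore does not cover changes of the size seen here. The SE used after trend removal ignores the error of the fit.

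Members and lists were chosen with earlier results of these data known. Every member is accounted for. Called members are given in full, and of the other lists up to 3 calls each by size of fold, from 1 FPKM upwards. Ruvbl1, Smarca1 and Tbl1xr1 were named beyond that limit. Alternatives covered q thresholds, minimum fold and FPKM, pseudocounts, scaling, the trend and joined rows.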

Additional observations from a re-analysis of the deposited data

How the results depend on the processing

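Of the 45 tested members, 6 passed as deposited, 3 higher and 3 lower. At a q-value of 0.01 the count was 2 (0 higher; Rnf2 and Kdm6a lower), and with a minimum of 2-fold it was 0 (0 higher, 0 lower). The same 6 genes passed at a q-value of 0.1, with minima of 1 or 5 FPKM and without rows that join several genes. Median-ratio scaling gave 0 higher and 6 lower. Removing the trend on GC content and length gave 0 in all (0 higher, 0 lower), with 4 knots as with 6, whereas a trend on GC content alone left 2 genes, both lower (Ep300 and Crebbp), and a trend on length alone left 4, all lower (Rnf2, Pcgf6, Rybp and Kdm6a). The cause was not tested. The median log2 fold of the members, 0.037, was 0.014 and 0.031 as a difference of log2(FPKM + 1) and log2(FPKM + 0.1), 0.021 and 0.042 with minima of 1 and 5 FPKM, -0.16 after median-ratio scaling and -0.047 after trend removal. Signs turned after median-ratio scaling for 11 uncalled members: Ezh1 (-0.0042), Eed (-0.029), Phf19 (-0.16), Cbx2 (-0.15), Kdm2b (-0.16), Kdm5b (-0.20), Kdm1a (-0.054), Setdb1 (-0.13), Suv39h1 (-0.068), Ash2l (-0.11), Smarca4 (-0.10). After trend removal they turned for 19 members, of which only Mbd3 had been called: Eed (-0.0054), Phf19 (-0.25), Pcgf2 (-0.12), Pcgf5 (0.40), Cbx2 (-0.36), Cbx7 (-0.21), Phc3 (0.016), Kdm2b (-0.10), Kdm6b (-0.036), Kdm1a (-0.10), Suv39h1 (-0.047), Suv39h2 (0.025), Trim28 (-0.046), Wdr5 (-0.047), Ash2l (-0.018), Smarca4 (-0.14), Chd1 (0.056), Mbd3 (-0.046), Hdac2 (0.13). No paired analysis was possible because the table holds 1 value per group. For the same reason no library could be left out in turn. Depth is unknown, so no counting limit can be given.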
